A study of Mus musculus with 12 samples.

Results

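Rab genes encode small GTPases that mark the membranes of the secretory and endocytic routes. Of 18351 genes in the table of islet expression, 56 had a symbol made of Rab, a number and at most 1 lower-case letter, and these are the members described here. The choice used the symbol alone and no expression value. Another 12 symbols that start with Rab and a digit were not counted as members. They include partners of Rab proteins, such as Rab11fip5 and Rab3gap1, and a pseudogene of Rab11b. Rab7l1, an older symbol of the Rab gene Rab29, is also among them, because it falls outside the pattern.

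A Rab protein cycles between a GTP-bound form, which sits on a vesicle and recruits effector proteins, and a GDP-bound form that is carried in the cytosol. Exchange factors load GTP, GTPase activating proteins trigger its hydrolysis, and prenyl groups added with the help of escort proteins hold the Rab in the membrane. In islets the Rab3 and Rab27 proteins are known for bringing insulin granules to the plasma membrane, through effectors such as granuphilin (Sytl4). In the neighbouring exocrine tissue, acinar cells carry Rab3d and Rab27b on their zymogen granules.

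Islet RNA was sequenced from Aldh1b1 tm1lacZ null mice, in which lacZ is knocked in at the gene of the mitochondrial aldehyde dehydrogenase Aldh1b1, and from wild-type mice, at P1 (postnatal day 1) and at week 8. Each of the 4 groups had 3 libraries. Islets of both genotypes were held for 2 h in RPMI-1640 with 10% FBS before RNA was taken. At P1 a library pooled 3 mice, while at week 8 it came from 1 mouse, so age and pooling cannot be told apart. The library numbers in the sample titles also form a separate series for each age, so age cannot be told apart from library series either. The week 8 null mice carry the names MUT218, MUT219 and MUT229, and values for that group are given in this order, values of the others in the order of replicates 1 to 3. The allele is carried in the whole animal, so the tables cannot separate effects within the islet from those outside it.

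Libraries held 15212080 to 29248285 reads assigned to genes, and the Rab genes took 0.149% to 0.418% of them. Normalised read counts are reads divided by the size factor of the library. Aldh1b1 itself was at 60.2 to 88.9 normalised reads in P1 wild-type and 58.9 to 102 in week 8 wild-type islets, against 0 to 2.79 and 0 to 0.671 in the null islets. The islet label held for hormone and beta cell genes, but acinar genes were abundant as well. A list of 31 acinar markers took 2.22% to 6.94% of the reads of P1 wild-type libraries and 11.3% to 26.1% of P1 null ones. At week 8 its share was 49.5% to 55.6% with the wild-type and 12.8% to 24.2% with the null genotype. A list of 12 beta cell markers took 4.62% to 7.51% and 1.26% to 3.01% at P1 (wild-type and null), and 2.62% to 5.21% and 11.8% to 13.6% at week 8. Acinar markers thus took more reads in null than in wild-type islets at P1 and fewer at week 8, and beta cell markers the reverse. In such bulk tissue fewer cells of a type and less RNA per cell cannot be told apart. P1 wild-type replicate 1 stood apart in how its log2 values, relative to the mean of all libraries of its age, varied with transcript length. Over genes with a mean of at least 10, the Spearman rho was -0.553 against -0.208 to 0.332 in the other libraries. Without this replicate, 1 Rab gene passed between the genotypes at P1, and the interaction described further on called 17.

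Promoter sequences are shown as examples for 4 granule Rab genes, 3 of which were higher and 1 of which was lower in week 8 null islets. With so few windows, no comparison between higher and lower genes can be drawn from them. RefSeq promoters on GRCm38.p6 were matched for 45 of the 56 members, and Rab26, Rab27b and Rab37 were among those without a match. The 250 bases before the start site are printed, and capitals mark CATATG and CAGCTG, both of them forms of the E-box CANNTG that basic helix-loop-helix factors bind, such as NeuroD1 in islet cells and Mist1 (Bhlha15) in acinar cells. Each motif reads the same on both strands, and CATATG and CAGCTG are counted within CANNTG too. The Rab27a sequence, its second listed promoter, lies at chr9:73063898-73064147 on the plus strand.
Rab27a: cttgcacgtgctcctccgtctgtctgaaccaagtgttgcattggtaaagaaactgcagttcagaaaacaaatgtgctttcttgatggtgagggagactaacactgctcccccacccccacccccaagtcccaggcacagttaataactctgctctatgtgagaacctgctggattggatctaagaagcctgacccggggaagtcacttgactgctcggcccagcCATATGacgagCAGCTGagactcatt
The Rab3a sequence, its second listed promoter, lies at chr8:70754852-70755101 on the plus strand.
Rab3a: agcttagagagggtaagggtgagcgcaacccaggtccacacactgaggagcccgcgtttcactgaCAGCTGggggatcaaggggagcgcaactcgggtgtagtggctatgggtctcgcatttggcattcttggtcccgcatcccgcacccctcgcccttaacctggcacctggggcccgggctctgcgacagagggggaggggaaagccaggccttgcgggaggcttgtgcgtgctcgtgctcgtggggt
The Rab3b sequence lies at chr4:108878820-108879069 on the plus strand.
Rab3b: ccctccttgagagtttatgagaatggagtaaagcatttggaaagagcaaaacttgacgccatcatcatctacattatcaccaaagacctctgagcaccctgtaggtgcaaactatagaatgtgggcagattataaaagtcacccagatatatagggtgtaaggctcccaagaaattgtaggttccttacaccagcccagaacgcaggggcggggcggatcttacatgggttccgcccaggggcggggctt
The Rab3d sequence lies at chr9:21918184-21918433 on the minus strand.
Rab3d: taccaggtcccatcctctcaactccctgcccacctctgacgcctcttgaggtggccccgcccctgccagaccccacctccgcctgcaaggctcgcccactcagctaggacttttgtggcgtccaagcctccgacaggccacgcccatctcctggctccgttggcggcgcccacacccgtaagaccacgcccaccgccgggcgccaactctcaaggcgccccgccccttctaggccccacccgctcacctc
In these 4 sequences CANNTG occurred 6 times in the Rab27a, 3 times in the Rab3a, 1 time in the Rab3b and 0 times in the Rab3d sequence. The promoter of Rab27a listed first, not printed, had 1 CANNTG and neither CATATG nor CAGCTG in its window, and that of Rab3a had 0, so the E-boxes of these genes depend on the start site chosen. The promoter of Rab3c, which was not called at week 8 and is not printed, had 3 CANNTG, 1 of them CAGCTG. The GC content of the 4 printed sequences was 51.6%, 64.4%, 48.8% and 69.2%. Over windows of 300 bases, from 250 before to 50 after the start, CATATG was present in 1 of 57 member promoters, that of Rab27a, and in 3.915% of 32851 mouse promoters. CAGCTG was present in 14 of 57 (24.56%) against 16.3% of all promoters, and CANNTG in 40 of 57 (70.18%) against 72.31%. The cAMP response element TGACGTCA was found in 2 of 57 (3.509%) against 1.79%. A match describes the letters in the window and is no evidence of binding.

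At week 8 the Rab genes of regulated exocytosis split into those higher and those lower in null islets. Of the 8 in this group, Rab3a, Rab3b, Rab27a and Rab37 rose 1.51-fold to 1.80-fold, and Rab3d, Rab26 and Rab27b fell. The null and wild-type values of all 8 did not overlap. Rab3b, Rab26, Rab27a and Rab37 are drawn in the study's figures on these samples, so their direction is no independent evidence. Among all Rab genes tested at this age, 13 of 55 were higher (23.6%, against 12.3% of all genes tested) and 5 of 55 were lower (9.09%, against 15.8%), at an adjusted p under 0.05 from limma with Benjamini-Hochberg adjustment over all genes. Rab33a was too low to be tested at week 8. Changes are given as fitted on log2(value + 1), so folds of low genes are understated, and a fold is the antilog of that difference. Null values lay above all wild-type values in 21 of 55 and below them in 7 of 55, against 21.5% and 22.1% of all genes. The median log2 difference was 0.13 over the Rab genes and 0.02 over all genes. Beside these counts, 31 of 31 acinar markers were lower in week 8 null islets with a median of -2.45 on the log2 scale, 10 of 12 beta cell markers were higher with a median of 1.01, and 8 of 8 stromal and 6 of 8 duct markers were lower. No marker of the acinar or beta cell list was at 0 in all libraries, and the part of these markers in the Rab results was not tested.

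Rab27a (ENSMUSG00000032202), the GTPase that docks insulin granules through granuphilin, had the highest level per kilobase of the 4 granule Rabs that rose. It had 2021, 2339 and 1855 normalised reads in week 8 wild-type and 3512, 3381 and 3476 in null islets. All null libraries lay above all wild-type libraries, with means of 2071 ± 246 and 3456 ± 67.7 (SD, n = 3). The log2 difference was 0.74 ± 0.12 (SE), a 1.68-fold rise with an adjusted p of 0.00171 (limma). Rab37 (ENSMUSG00000020732), a Rab found on secretory granules of mast cells and beta cells, went from 749.6, 1225 and 769 to 1617, 1601 and 1602. Wild-type replicate 2 stood above the other wild-type libraries, and the null libraries differed by an SD of only 8.97. The rise was 1.80-fold, 0.85 ± 0.18 on the log2 scale (limma, adjusted p = 0.00649).

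Rab3a (ENSMUSG00000031840) and Rab3b (ENSMUSG00000003411), synaptic and endocrine vesicle Rabs that bind RIM proteins and rabphilin, were both higher. Rab3a had 675, 1001 and 722 normalised reads in wild-type and 1094, 1204 and 1283 in null islets, a difference of 0.60 ± 0.16 on the log2 scale (1.51-fold, limma adjusted p = 0.0188). The gap between the groups was small, since wild-type replicate 2 reached 1001 and null MUT218 was at 1094. Without wild-type replicate 1, wild-type replicate 3 or null MUT229 the adjusted p of Rab3a was 0.0599, 0.0852 and 0.0824. Rab3b had 242, 332 and 272 in wild-type and 581, 462 and 453 in null islets, and rose 1.77-fold (0.82 ± 0.17, limma adjusted p = 0.00566).

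Rab27b (ENSMUSG00000024511), the paralog of Rab27a that acts in exocrine and mast cell granules, went the other way. It was at 284, 184 and 384 normalised reads in wild-type and 59.8, 82.7 and 42.7 in null islets, 4.50-fold lower (-2.17 ± 0.31, limma adjusted p = 0.00122). Rab26 (ENSMUSG00000079657), a Rab of acinar granules and synaptic vesicles, had 417, 409.7 and 503 in wild-type and 67.8, 172 and 95.5 in null islets. Null MUT219 was the highest of its group for both genes, and it also held the largest acinar share of that group, 24.2% against 12.8% and 13.9%. For Rab3d, the zymogen granule Rab described below, null MUT219 was instead the lowest of its group. The part of the acinar share in these values was not tested. The fall of Rab26 was 4.22-fold (-2.08 ± 0.29, limma adjusted p = 0.00111). Rab26 overlaps the same-strand gene Traf7 by 698 bases between gene bounds, where reads could be shared, and Traf7 was at 803 ± 36.4 in wild-type and 785 ± 32.2 in null islets (SD, n = 3).

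Rab3d (ENSMUSG00000019066), the Rab3 form of zymogen granules, had the highest level per kilobase of the granule Rabs in week 8 wild-type islets. It had 4222, 4353 and 4674 normalised reads there and 3135, 3092 and 3309 in null islets. The groups were well apart and the fall was 1.39-fold (-0.47 ± 0.10, limma adjusted p = 0.00866). Its adjusted p was 0.0535 without wild-type replicate 3 and 0.053 when all 12 libraries were fitted together. Rab3c (ENSMUSG00000021700), another vesicle Rab of neurons and endocrine cells, had 158, 175 and 166 in wild-type and 140.3, 145 and 106 in null islets, with no overlap but an adjusted p of 0.198 (limma, -0.36 ± 0.19). The libraries kept the strand of the RNA, but whether strand was used in counting is not given, so reads of opposite-strand neighbours such as Mpv17l2 at Rab3a (29 bases between gene bounds) and Cd300lf at Rab37 (17779 bases) could be included.

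**Figure D1:**
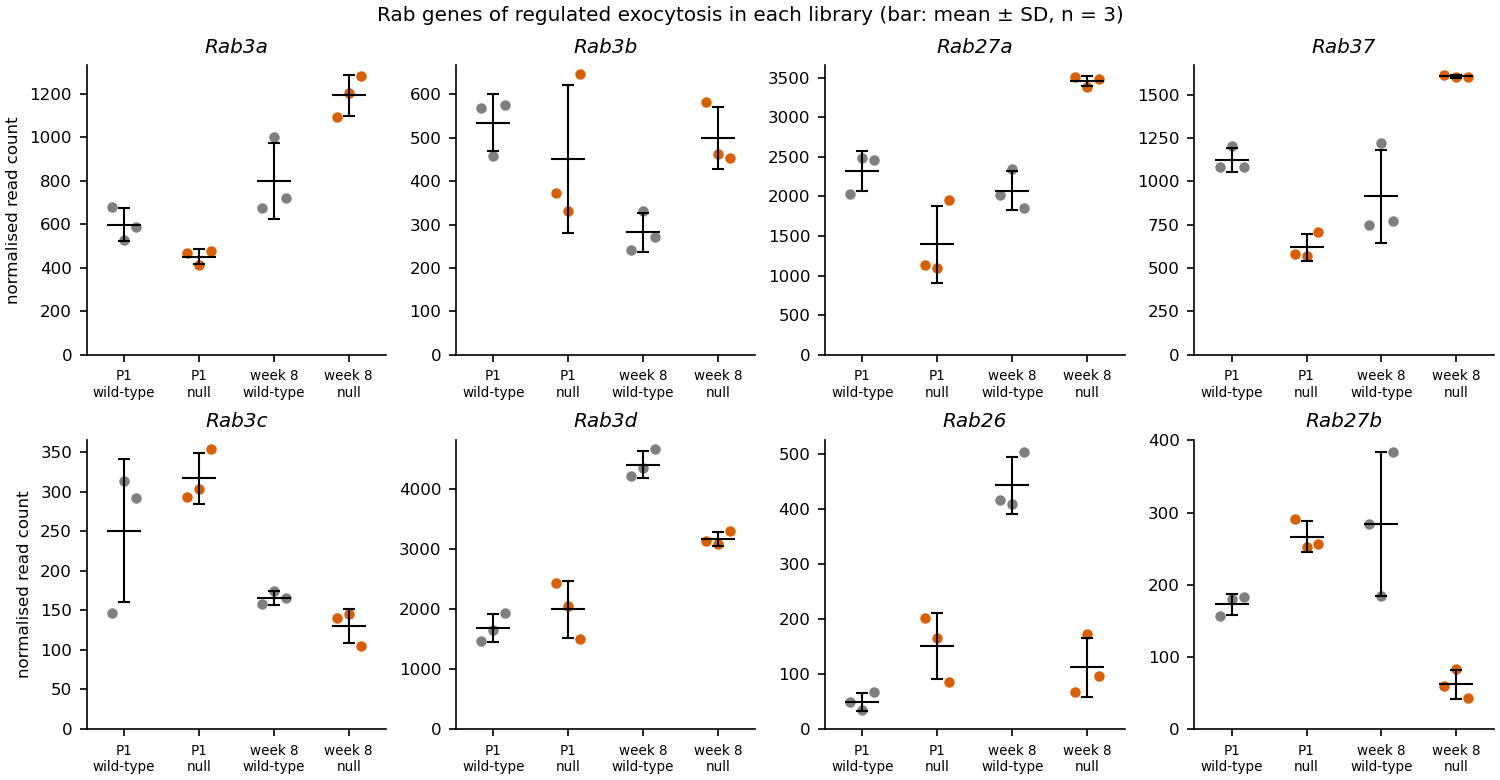
Normalised read counts (vertical axes, from 0) of the 8 Rab genes of regulated exocytosis in the 3 libraries of each group; points are libraries and bars are mean ± SD. In week 8 null islets Rab27a sits at 3381 to 3512 against 1855 to 2339 in wild-type, while Rab26 sits at 67.8 to 172 against 409.7 to 503.

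Among the Rab genes of the ER and Golgi, 5 of 14 tested were higher (35.7%, against 12.3% of all genes) and 1 was lower (7.14%, against 15.8%) at week 8. Each gene was placed in 1 role only, so these shares depend on where genes with several sites, such as Rab39 and Rab36, were placed. Rab39, a Rab of the endolysosomal system with a Golgi pool, had 56.0, 51.2 and 51.1 normalised reads in wild-type and 142, 97.0 and 124 in null islets, a 2.25-fold rise (1.17 ± 0.23, limma adjusted p = 0.00552). It was the largest rise among the Rab genes that passed the test. Rab39b, a neuronal Golgi Rab, had 884, 797 and 747 in wild-type and 1877, 1000.2 and 1569 in null islets. The null libraries spread widely, with null MUT219 lowest, and the rise was 1.77-fold (0.83 ± 0.20, limma adjusted p = 0.0142). Rab36, which acts at the Golgi and on the position of lysosomes, had 259, 387 and 294 against 406, 572 and 449, a rise of 1.52-fold (0.61 ± 0.19, limma adjusted p = 0.0372).

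Rab34, a Golgi and cilium Rab, had 264, 293 and 343 normalised reads in wild-type and 437, 386 and 443 in null islets at week 8 (0.50 ± 0.15, limma adjusted p = 0.032). Rab6a, the Rab of retrograde transport to and through the Golgi, rose by 0.40 on the log2 scale (limma adjusted p = 0.0243). Rab43, a Rab of transport between ER and Golgi, fell 1.43-fold, from 972, 802 and 1091 to 639, 687 and 655 (-0.52 ± 0.13, limma adjusted p = 0.0178). Rab43 overlaps the same-strand gene Gm45140 over 23304 bases between gene bounds, so its reads may be shared. The calls of Rab34, Rab36, Rab39b, Rab43 and Rab6a were each lost without at least 1 of the week 8 libraries.

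The remaining roles are set against all genes tested at week 8, of which 28.1% were called in either direction. Of the 7 Rab genes on the route from Golgi to cell surface and cilium, Rab28 and Rab12 were higher and none was lower. Their share of 28.6% is near that of all genes, so the count says nothing about the role. Rab28, a Rab of cilia and photoreceptors, had 629, 717 and 626 normalised reads in wild-type and 1137, 973 and 981 in null islets, a 1.57-fold rise (0.65 ± 0.12, limma adjusted p = 0.00406). Rab12, which directs recycling receptors to degradation, had 860.1, 753 and 798 against 1248, 1051 and 1143 (1.43-fold, 0.51 ± 0.12, limma adjusted p = 0.0104). Its groups did not overlap, but its adjusted p was 0.0532 without null MUT218.

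In the early endosome group 1 of 6 genes was higher (16.7%, against 12.3% of all genes), namely Rab21, a Rab of integrin uptake. Its log2 difference was 0.39 (limma adjusted p = 0.0252). In the late endosome and lysosome group Rab9b, a paralog of the Rab9 that returns cargo to the Golgi, was the only 1 of 5 to pass (20%, against 28.1% of all genes). It had 23.6, 50.1 and 26.2 normalised reads in wild-type and 85.3, 61.8 and 61.5 in null islets (2.15-fold, limma adjusted p = 0.0376), and leaving out any library but wild-type replicate 2 ended the call. None of the 9 recycling endosome genes passed in either direction, against 28.1% of all genes, and 5 of them were above 0. The list holds Rab11a, Rab4a and Rab25, the Rabs that return receptors to the surface.

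Rab20, a Rab of phagosome maturation grouped under other roles, was the only 1 of 6 there to pass (16.7%, against 28.1% of all genes). It had 399, 245 and 427 normalised reads in week 8 wild-type and 165, 205 and 177 in null islets, 1.91-fold lower (-0.93 ± 0.22, limma adjusted p = 0.0118). Wild-type replicate 2 was the lowest of its group but still above all null libraries. At this age 4 of 10 macrophage markers were lower, and their part in the Rab20 value was not tested.

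**Figure D2:**
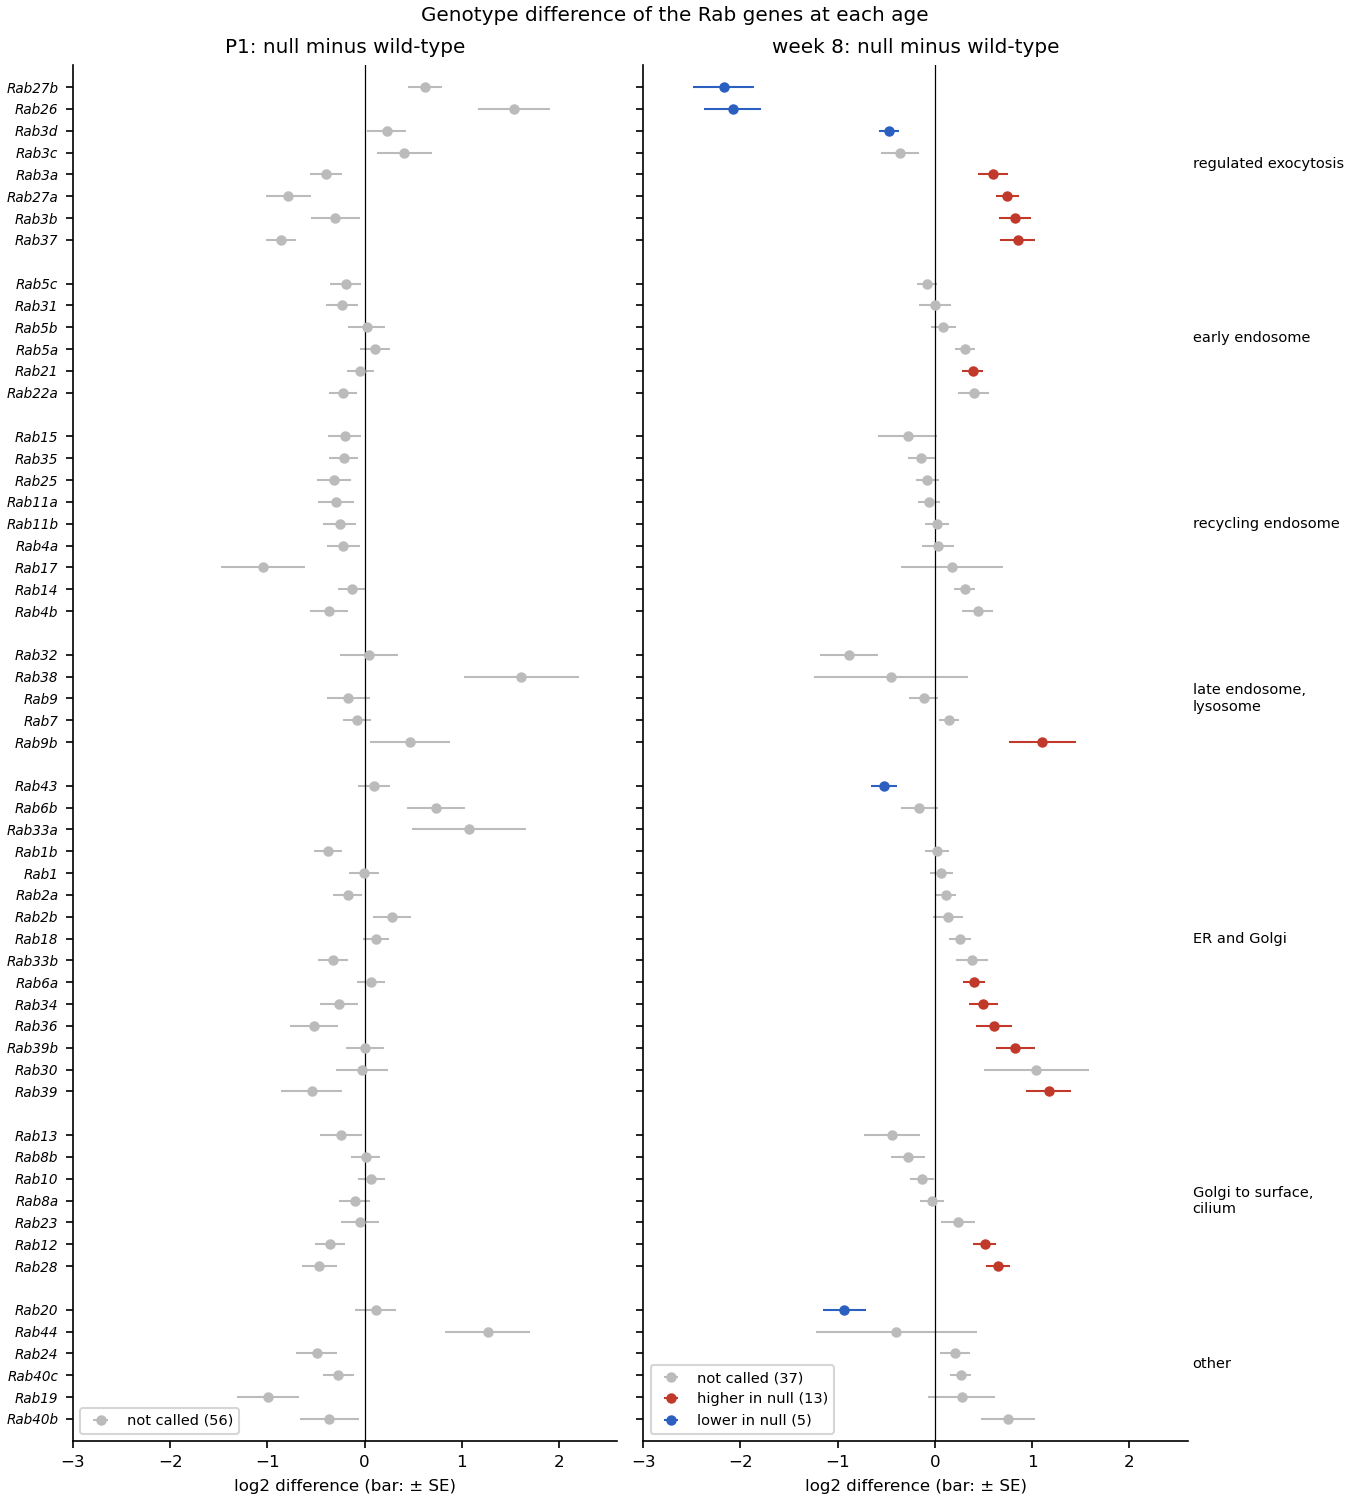
Log2 difference, null minus wild-type, of each Rab gene at P1 (left) and week 8 (right), by role, with bars of ± SE; colour marks genes that passed limma's test at an adjusted p under 0.05. At P1 0 of 56 passed, and at week 8 13 were higher and 5 lower, with 7 of the 8 exocytosis genes among them.

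At P1 none of the 56 Rab genes passed the test between null and wild-type islets, where 0.0658% of all genes did (12 of 18235, limma). At an unadjusted p under 0.05 there were 14 of 56 (15% of all genes, 2730 of 18235), edgeR on recovered reads called 0, and DESeq2 called 2, Rab26 and Rab37. The values of null islets lay below all wild-type values in 16 of 56 genes (28.6%, against 10.9% of all genes) and above them in 5 of 56 (8.93%, against 12.7%). The median log2 difference was -0.17, against 0.03 over all genes, and 36 of 56 genes were below 0. In the P1 null islets all 31 acinar markers were above 0 with a median of 2.66, of which 2 passed the test, and 11 of 12 beta cell markers were below 0 with a median of -0.87. The part of these markers was not tested.

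The smallest adjusted p at P1 was that of Rab37. It had 1084, 1202 and 1086 normalised reads in wild-type and 580.4, 569 and 708 in null islets, a log2 difference of -0.86 ± 0.15 (limma, adjusted p = 0.0806). Without P1 wild-type replicate 1 its adjusted p was 0.0282, and in the fit of all 12 libraries it was 0.0348. Rab27a had 2032, 2482 and 2455 in wild-type and 1128, 1097 and 1953 in null islets (-0.79 ± 0.23, limma adjusted p = 0.189). Null replicate 3 was closest to the wild-type libraries, and it also had the smallest acinar share of its group, 11.3% against 22.4% and 26.1%. Its beta cell marker share was the largest of its group, 3.01% against 1.26% and 1.41%. The part of these shares in the Rab27a values was not tested. Without null replicate 3 the adjusted p was 0.0423 for Rab27a, 0.0483 for Rab37 and 0.0499 for Rab26 (limma).

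Rab26 had 48.2, 34.3 and 66.9 normalised reads in P1 wild-type and 201, 166 and 84.8 in P1 null islets, with no overlap (1.54 ± 0.37, limma adjusted p = 0.139). Rab27b had 156, 179.8 and 183 against 291, 252 and 256, also with no overlap (0.62 ± 0.18, limma adjusted p = 0.182). Rab3d overlapped between the groups, with 1472, 1658 and 1931 against 2443, 2056 and 1499 (0.22 ± 0.20, limma adjusted p = 0.614). The other Rab3 genes did not pass either. Rab3a was at 680.1, 528 and 587 in wild-type and 468, 411 and 477 in null islets (-0.40 ± 0.16, limma adjusted p = 0.307).

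Rab3b overlapped at P1, with 568, 458 and 576 normalised reads in wild-type and 373, 332 and 646 in null islets (-0.30 ± 0.25, limma adjusted p = 0.588). Rab3c was at 147, 313 and 293 against 293, 304 and 354 (0.41 ± 0.28, limma adjusted p = 0.518), where wild-type replicate 1 was the low value, and without that library the difference was 0.06 (adjusted p = 0.849). All 9 recycling endosome genes were below 0 in P1 null islets, with a median of -0.26 on the log2 scale, and 4 of them lay below without overlap. Over all genes 8626 of 18235 were below 0 and 10.9% lay below without overlap. Among all 56 Rab genes 36 were below 0 and 28.6% lay below without overlap, so the shift was not particular to this role. The differences over all members ranged from -1.05 for Rab17 to 1.61 for Rab38, both with few reads (252 and 107 over all 12 libraries).

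The difference between null and wild-type islets at week 8 was then set against that at P1, in 1 fit of all 12 libraries. It differed in 15 of 56 Rab genes, higher in 11 (against 8.2% of all genes) and lower in 4 (against 13.6%, limma, adjusted p under 0.05), with a median of 0.24 against -0.01 over all genes. Of the 8 exocytosis genes 7 passed. For Rab3d, at -0.70 with an adjusted p of 0.0477 (limma), the call was kept in only 2 of 12 fits that left out 1 library. In those fits the adjusted p reached up to 0.132. The largest were Rab26 at -3.62 ± 0.52 (limma adjusted p = 0.000395) and Rab27b at -2.79 ± 0.38 (adjusted p = 0.000321), both with null values above the wild-type values at P1 and below them at week 8. Rab37 at 1.72 ± 0.25 (adjusted p = 0.000408) and Rab27a at 1.53 ± 0.27 (adjusted p = 0.00158) had the reverse order. The acinar markers also differed in 31 of 31 cases, all lower with a median of -5.02, and 10 of 12 beta cell markers were higher with a median of 1.77. Their part was not tested.

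Outside the exocytosis group the genotype effect was higher at week 8 than at P1 for Rab39, by 1.72 on the log2 scale (limma adjusted p = 0.00585). At P1 Rab39 had 32.1, 35.7 and 36.8 normalised reads in wild-type and 19.8, 20.7 and 31.7 in null islets. Rab36, with 266, 454 and 368 against 215, 220.0 and 318 at P1, differed by 1.13 (adjusted p = 0.025). The cilium Rab Rab28 had 752, 609 and 576 against 425, 429 and 548 at P1, with no overlap, and differed by 1.11 (adjusted p = 0.00267). For Rab12 the P1 values were 1672, 1297 and 1326 against 1082, 1131 and 1127, and the difference was 0.86 (adjusted p = 0.00545). For all 4 the week 8 null libraries lay above the week 8 wild-type libraries. Rab4b, a Rab of fast recycling, had 714, 474 and 508 in wild-type and 428, 390.3 and 476 in null islets at P1. At week 8 it had 373, 547 and 445 against 561, 658 and 614, and its effect differed by 0.81 (limma adjusted p = 0.0374) although neither age passed alone. Rab34 at P1 had 1021, 698 and 623 against 651, 622 and 635, and its effect differed by 0.76 (limma adjusted p = 0.0433). Rab20 differed in the other direction, by -1.04, with 182, 138 and 205 against 202, 183 and 177 at P1 (limma adjusted p = 0.0295). These calls, too, depended on single libraries. Of 12 fits that left out 1 library, 6 kept the call of Rab36, 5 that of Rab4b, 3 that of Rab34 and 5 that of Rab20.

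The levels of paralogs were compared within each library per kilobase of transcript, where the size factor of the library cancels. The ratio of Rab27b to Rab27a was 0.0214, 0.0202 and 0.0207 in P1 wild-type and 0.0718, 0.0639 and 0.0365 in P1 null islets. At week 8 it was 0.0391, 0.0218 and 0.0576 in wild-type and 0.00473, 0.00681 and 0.00342 in null islets. The genotypes did not overlap at either age, with null above wild-type at P1 and below it at week 8. The ratio of Rab3d to Rab3a was 2.31 to 3.43 in week 8 wild-type and 1.36 to 1.52 in null islets, and overlapped at P1 (1.15 to 1.75 and 1.67 to 2.77). The ratio of Rab26 to Rab37 was 0.0533 to 0.115 and 0.224 to 0.647 at P1, and 0.625 to 1.22 and 0.0784 to 0.201 at week 8, in wild-type and null islets. Each pair sets a gene that fell at week 8 over a gene that rose, both without overlap. The order of the week 8 ratios was therefore fixed by values already given. The same holds at P1 for Rab27b to Rab27a and for Rab26 to Rab37, whose values moved apart without overlap there. These ratios are a description with no test, and the acinar share of reads, too, was above wild-type in P1 null islets and below it in week 8 null islets.

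**Figure D3:**
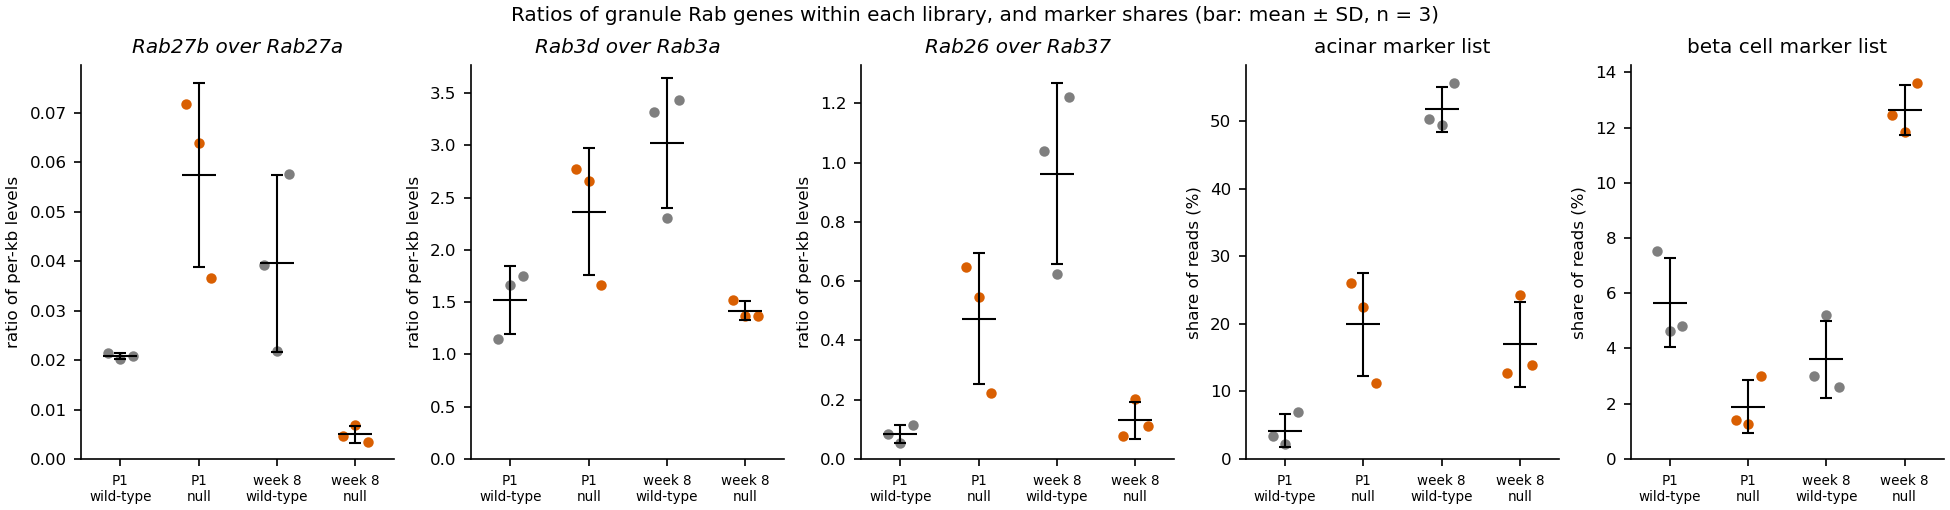
Ratios of per-kilobase levels of paired granule Rab genes within each library (3 left panels) and shares of reads, in percent, of the acinar and beta cell marker lists (2 right panels); points are libraries and bars are mean ± SD. The Rab27b to Rab27a ratio is 0.0365 to 0.0718 in P1 null islets and 0.00342 to 0.00681 in week 8 null islets, where the acinar list took 11.3% to 26.1% and 12.8% to 24.2% of reads.

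Per kilobase, Rab1, Rab2a and Rab7 had the highest levels of all Rab genes in each of the 4 groups. They serve the ER to Golgi step, the early Golgi and the late endosome, and stood at 1899, 1837 and 1402 normalised reads per kilobase in week 8 wild-type islets. None of the 3 passed limma's test between the genotypes at either age. Related genes, such as Rab1 and Rab1b, Rab5a to Rab5c, Rab6a and Rab6b, or Rab11b and its pseudogene, may share some reads. This was not tested, so their levels are less certain. In wild-type islets Rab3d ranked 16 at P1 and 4 at week 8, at 402.1 and 1052.5 per kilobase, and in week 8 null islets it ranked 9 at 757.5. Rab27a ranked 9 at P1 and 10 at week 8 with the wild-type genotype, and 13 and 5 with the null genotype.

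As a group, the exocytosis Rabs made up 10.3% ± 1.17 of the summed per-kilobase Rab level of P1 wild-type and 9.15% ± 0.75 of P1 null islets (SD, n = 3). By week 8 their share was 13.5% ± 1.13 with the wild-type and 14.0% ± 0.43 with the null genotype. The week 8 shares overlapped between the genotypes, at 12.5% to 14.7% in wild-type and 13.5% to 14.4% in null libraries, while single members of the group moved in both directions. The ER and Golgi Rabs made up 35.6% to 38.2% as group means. Some members were barely detected. At week 8 Rab33a had 0, 2.23 and 0 normalised reads in wild-type and 0.671, 0 and 0.723 in null islets, and Rab44, a Rab of immune cells, had 80 reads over all libraries.

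**Figure D4:**
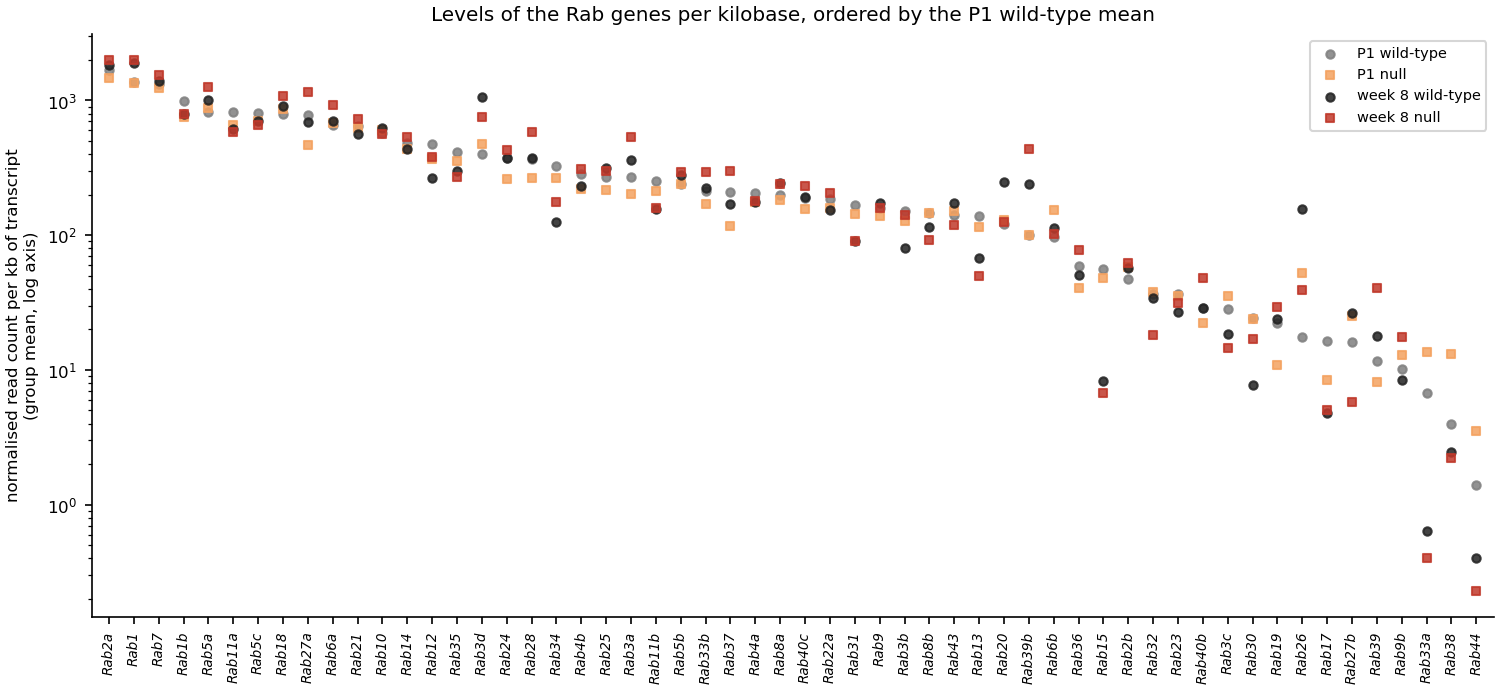
Group means of normalised read count per kilobase of transcript (log axis) for the Rab genes, ordered by P1 wild-type, with 1 symbol for each of the 4 groups. Rab1, Rab2a and Rab7 lead in all groups, and Rab3d stands at 402.1 in P1 wild-type and 1052.5 in week 8 wild-type islets.

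Between P1 and week 8, wild-type islets had 5 of 56 Rab genes higher and 11 lower, against 15.9% and 16.8% of all genes (limma, adjusted p under 0.05). The higher genes were Rab26 (3.17 on the log2 scale), Rab3d (1.40), Rab39b (1.25), Rab20 (1.00) and Rab1 (0.48). Among the lower ones was Rab15, a neuronal Rab of recycling endosomes, with 239, 276 and 258 normalised reads at P1 and 33.9, 44.5 and 35.9 at week 8 (-2.73 ± 0.21, limma adjusted p = 8.22e-07). The recycling endosome group had 4 of 9 members lower and 0 higher. Acinar markers were higher at week 8 in 30 of 31 cases with a median of 5.54, and their part was not tested.

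In null islets 23 of 56 Rab genes were higher at week 8 than at P1 and 13 lower, against 21.2% and 25.5% of all genes (limma). Rab39 (2.30 on the log2 scale), Rab39b (2.08), Rab3a (1.40), Rab37 (1.38) and Rab27a (1.36) were higher. Rab27b (-2.14) and Rab3c (-1.28) were lower, and Rab26 did not pass (-0.44 ± 0.36, limma adjusted p = 0.34). Rab15 was lower in null islets too, with 223, 217 and 229.1 at P1 and 36.3, 32.3 and 25.3 at week 8. The beta cell markers were higher in 12 of 12 cases, with a median of 2.90. The age comparisons share libraries with the genotype comparisons and are no separate evidence for them.

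The partners of granule Rabs were next examined as a list of the effector families of Rab3 and Rab27, of which 15 genes were tested at week 8. The list holds whole families and so includes Rims3 and Rims4, short RIM proteins without the Rab-binding part, and Rabep1, which is best known as the Rab5 effector rabaptin-5. In null islets 6 of 15 were higher and 4 lower, against 12.3% and 15.8% of all genes, with a median of 0.45 against 0.02 over all genes. Sytl4, granuphilin, which holds insulin granules at the membrane with Rab27a, had 2601, 3419.8 and 2087 normalised reads in wild-type and 5889, 5741 and 6073 in null islets (2.23-fold, limma adjusted p = 0.00115). Exph5, a Rab27 effector of exocytosis, had 449, 518 and 419.8 against 867, 899 and 766 (1.83-fold, adjusted p = 0.00149). Rims2, the Rab3-binding RIM2 scaffold of release sites, had 467, 473 and 363.2 against 768, 908 and 755 (1.87-fold, adjusted p = 0.00201). Null and wild-type values did not overlap for any of the 3.

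Rims4 fell 4.76-fold, from 106, 156 and 151 normalised reads in wild-type to 15.4, 36.1 and 37.6 in null islets (limma adjusted p = 0.00194). Chosen after their values were seen, the others that passed were Rabep1 (0.70 on the log2 scale), Sytl5 (0.66) and Rph3al, or Noc2 (0.56), all higher, and Myrip (-0.92), Sytl1 (-0.61) and Mlph (-0.56), all lower. Rims2, Sytl4, Rph3al and Myrip are drawn in the study's figures on these samples, so their direction is no independent evidence. At P1 0 of the 16 listed genes passed by limma, with 5 at an unadjusted p under 0.05 against 15% of all genes. The genotype effect differed between the ages in 5 of 16, higher for Sytl4 and Rph3al (8.2% of all genes) and lower for Myrip (-1.96), Rims4 (-3.02) and Mlph (13.6% of all genes).

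**Figure D5:**
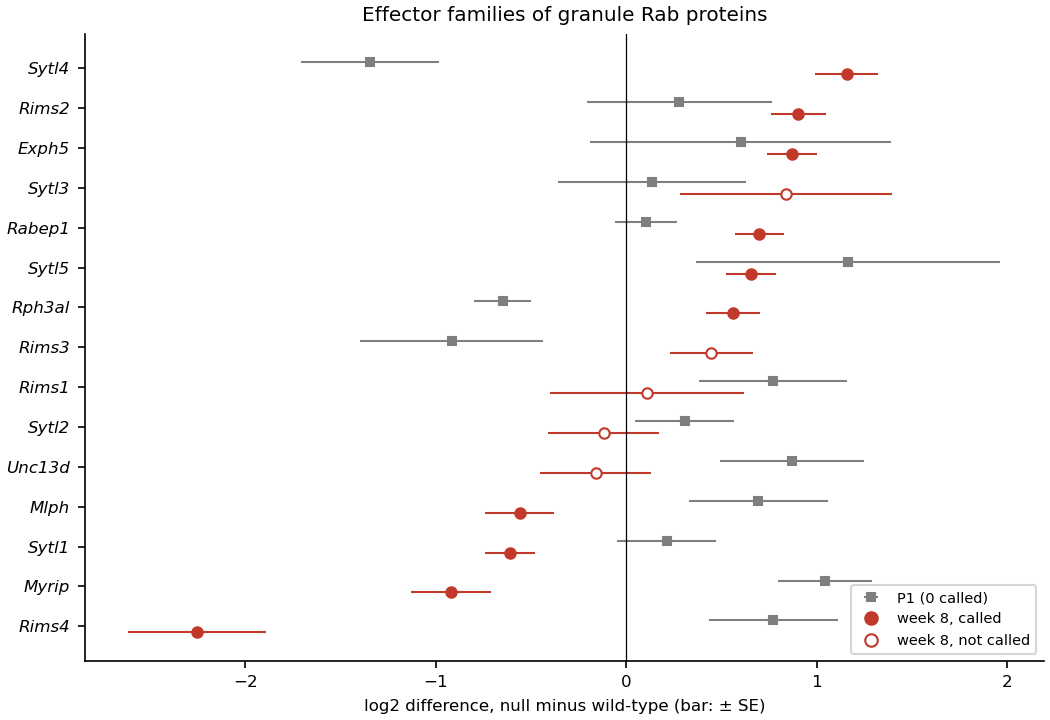
Log2 difference, null minus wild-type, of the genes listed as effector families of granule Rab proteins at P1 (squares) and week 8 (circles, filled where limma's adjusted p was under 0.05), with bars of ± SE. At week 8 Sytl4 stands at 1.16 and Rims4 at -2.25, and at P1 none passed.

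Effectors of other Rab proteins had 7 higher and 10 lower of 40 at week 8, against 12.3% and 15.8% of all genes, with a median of 0.18 against 0.02. Myo5c, a class V myosin of exocrine secretory granules, had 1004, 853 and 1286 normalised reads in wild-type and 103, 286 and 149.8 in null islets, 6.27-fold lower (limma adjusted p = 0.000609). As for Rab26 and Rab27b, but not for Rab3d, null MUT219 had the highest value of its group. Rab11fip5, a Rab11 effector, fell 2.40-fold from 993, 671 and 865 to 338, 309.9 and 397 (adjusted p = 0.000884). Mical1, a Rab-binding actin oxidase, fell 2.22-fold from 149, 146 and 163 to 69.2, 66.6 and 68.7 (adjusted p = 0.00245), and Ehbp1l1, a Rab8 effector, fell 2.43-fold from 424, 213 and 354 to 133, 121 and 137 (adjusted p = 0.00421).

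GTPase activating proteins with a Rab GAP (TBC) domain or Rab3 GAP activity had 12 higher and 1 lower of 37 at week 8, against 12.3% and 15.8% of all genes. Sgsm1, a TBC protein of neurons, had 1729, 1848 and 1577 normalised reads in wild-type and 3083, 2717 and 3209 in null islets (1.75-fold, limma adjusted p = 0.00119). Of 26 exchange factors 2 were higher and 4 lower, a total share below the 28.1% of all genes called in either direction. Dennd4c, which loads Rab10, had 1666, 1858 and 1393 against 3390.3, 3225 and 3005 (1.97-fold, limma adjusted p = 0.000846). Madd, the exchange factor of Rab3 and Rab27 and chosen after its value was seen, was the other (0.83 on the log2 scale, adjusted p = 0.0025).

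Of 8 genes for prenylation, escort and GDI proteins, 1 was higher and 1 lower at week 8, near the 28.1% of all genes called in either direction, so the count says nothing about the list. Both are named after their values were seen. Chm, the Rab escort protein REP1 that has Rab27a among its substrates, was higher by 0.69 on the log2 scale (limma adjusted p = 0.00561). Rabac1, a Golgi protein that binds prenylated Rabs, was lower by a log2 difference of -0.58 (adjusted p = 0.0169). At P1 0 genes of these 4 lists passed in either direction by limma, and an unadjusted p under 0.05 was found for 5 of 40 other effectors, 5 of 37 GTPase activating proteins, 4 of 26 exchange factors and 0 of 8 in the last list, against 15% of all genes.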

How the data were processed

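The authors deposited 1 table of normalised read counts, a signal made by dividing the reads of each of 18351 genes by a DESeq size factor for each of 12 libraries. DESeq 1.10.1, bedtools 2.11, mm9 and Ensembl 67 appear in the submitters' processing notes. For the aligner and counting options, the sources used here give nothing. Another 12 columns, with group means and the authors' fold and p-values, were not used. Values were whole multiples of the smallest in 100% of cases (within 0.001), so whole reads were recovered. Transcript lengths in bases, as deposited, gave per-kilobase levels.

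Genes with a mean of at least 1 were tested with limma 3.58.1 (trend, R 4.3.3) on log2(value + 1), with a Benjamini-Hochberg adjusted p under 0.05, in separate fits of 6 libraries for each age. The test of raw counts by edgeR, also planned, did not apply, and edgeR 4.0.16 and DESeq2 1.42.0 on recovered reads were alternatives. Other alternatives were pseudocounts of 0.1 and 10, no filter or a mean of at least 10, TMM, size factors without acinar and top genes, an adjusted p of at most 0.1, 1 fit of 12 libraries, a replicate block and leaving out each library. Interaction and age effects came from 1 fit of 12 libraries. The fits were tested on simulated data. Labels do not say whether replicates were processed on separate days, so p-values cover only the spread between these libraries. Between libraries of a group the chi-square of the counts was 13.5 to 115.6 per degree of freedom, above sampling noise, so each was counted on its own.

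Named genes are the 8 exocytosis Rabs, up to 10 higher and 10 lower members of each genotype comparison by log2 difference among those passing, up to 3 examples per role, and up to 5 higher and 5 lower partners by adjusted p. Members, roles and lists were chosen with earlier results of these data known. Overlaps are from GENCODE vM21. Tables and plots used Python 3.11.15, pandas 2.3.3 and matplotlib 3.10.9.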

Additional observations from a re-analysis of the deposited data

Results flagged for a closer look

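The genotype effect of 15 Rab genes differed between week 8 and P1 by the interaction term of the limma fit over all 12 libraries, and these are listed for that reason, as log2 differences of the effect at week 8 minus that at P1. Among the exocytosis genes it was -3.62 for Rab26 (adjusted p = 0.000395), -2.79 for Rab27b (adjusted p = 0.000321) and -0.70 for Rab3d (adjusted p = 0.0477). The Rab3d call was kept in only 2 of 12 fits that left out 1 library. The difference was 1.72 for Rab37 (adjusted p = 0.000408), 1.53 for Rab27a (adjusted p = 0.00158), 1.13 for Rab3b (adjusted p = 0.0221) and 1.00 for Rab3a (adjusted p = 0.00762). Among the ER and Golgi genes it was 1.72 for Rab39 (adjusted p = 0.00585), 1.13 for Rab36 (adjusted p = 0.025), 0.76 for Rab34 (adjusted p = 0.0433) and 0.71 for Rab33b (adjusted p = 0.0416). The others were Rab28 at 1.11 (adjusted p = 0.00267), Rab12 at 0.86 (adjusted p = 0.00545), Rab4b at 0.81 (adjusted p = 0.0374) and Rab20 at -1.04 (adjusted p = 0.0295). The acinar markers differed in 31 of 31 cases in the same test, with a median of -5.02, and their part was not tested. Of these 15 genes, 8 passed whichever library was left out, namely Rab12, Rab26, Rab27a, Rab27b, Rab28, Rab37, Rab39 and Rab3a.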

How the results depend on the processing

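No Rab gene that passed a test changed sign under any alternative run, while some that did not pass had differences near 0 that did, such as Rab39b at P1 in 6 alternatives. Depth limits the members with few reads, such as Rab33a, Rab38 and Rab44. At P1 the count of Rab genes passing was 0, but 2 by DESeq2 (Rab26 at 1.58 and Rab37 at -0.88; it called 602 genes in all against 12), 1 at an adjusted p of at most 0.1 and 1 in the fit of all 12 libraries (Rab37 both times). At week 8 the 18 genes became 15 to 24 under the settings that kept all libraries. The interaction count of 15 became 23 by DESeq2 and 24 at an adjusted p of at most 0.1. Leaving out each library in turn gave 0 to 3 at P1, 9 to 22 at week 8, 8 to 17 for the interaction, 14 to 19 for age in wild-type and 27 to 38 for age in null islets. At P1 null replicate 3 was the library left out for the count of 3, and wild-type replicate 1 for a count of 1. At week 8 the count was 9 without wild-type replicate 3, 10 without null MUT229 and 11 without null MUT218, and 7 of the 18 genes passed in every case (Rab26, Rab27a, Rab27b, Rab28, Rab37, Rab39 and Rab3b). The interaction count was 8 when P1 null replicate 1, P1 null replicate 2 or week 8 wild-type replicate 1 was left out, and 9 for week 8 wild-type replicate 3 or null MUT218. The cause was not tested. With the replicate number as a block the count was 0 at P1 and 13, against 16, for age in wild-type islets. Same-numbered libraries did not deviate together (correlations of 0.0331, -0.0188 and -0.0252 between the P1 genotypes and -0.0376, -0.0514 and -0.0223 between the wild-type ages), so the numbers were not taken to pair samples, and the week 8 genotypes share no number.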
